A study of Mus musculus with 6 samples.

Results

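The 9 genes described here encode transcription factors and cofactors that direct the making and the layer identity of neurons in the cerebral cortex: Eomes, Tbr1, Bcl11a, Bcl11b, Fezf2, Pou3f2, Pou3f3, Lmo4 and Mef2c. Every E2A peak that the authors' annotation tables assign to one of them was taken, at any distance from the gene. This gave 174 of the 91185 peaks in 5 lists, and 8 of the 9 genes had at least 1. Peaks that overlapped by at least 1 bp were joined across the lists into sites, so that the 174 peaks formed 58 of 32693 sites. The lists came from chromatin immunoprecipitation and sequencing (ChIP-seq) of E2A in cultured neural stem cells: 1 library from E12 knockout cells (E12KO), 1 from E47 knockout cells (E47KO) and 3 from wild-type cells (wt replicates 1, 2 and 3). All were of strain C57BL/6J, came from E12.5 embryos, were untreated, and were grown with 20 ng/ml each of FGF-2 and EGF, which keep such cells dividing. All were crosslinked with EGS (1.5 mM, 20 min) and formaldehyde (1%, 10 min). An input DNA library was not analysed here. The labels do not say how the knockout alleles were made or whether the wt samples were separate cultures.

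The 5 lists differed in length, with 25229 peaks in E12KO, 22176 in E47KO, and 6814, 12772 and 24194 in wt replicates 1 to 3. Read depth is unknown, so an absent peak means only that none was listed. The false discovery rate labels of wt replicate 1 and of the other lists also differ, with settings not known here. Each knockout has 1 library, and no test between genotypes was made. Peak lists hold no expression values, so neither the knockouts nor the cell type could be checked from them.

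E2A, the product of Tcf3, is a basic helix-loop-helix protein made in the splice forms E12 and E47. It binds the E-box, the motif CANNTG, as a dimer with itself or with tissue-specific partners such as the proneural factors that start neurogenesis. In the developing cortex, dividing stem cells give rise to intermediate progenitors and then to neurons of successive layers. Fezf2 and Bcl11b specify the deep neurons that project to the spinal cord, Tbr1 those that project to the thalamus, and Pou3f2 and Pou3f3 promote the later-born upper neurons.

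E-boxes were looked for where sequence could be read, in windows from 250 bases before to 50 after the RefSeq start sites (GRCm38.p6), of which the 9 genes have 13. Of these, 6 held CANNTG, against 72.3% of 32851 such windows over all genes. None held CAGCTG (16.3% of all windows), 1 held CAGGTG or its reverse complement CACCTG (20.2%), and 1 held CATCTG or CAGATG (17.2%), all searched on both strands and all being forms of CANNTG. The member windows had a median GC content of 60.3%, against 52.7% over all windows. Of the 7 member windows with at least 60% GC, 3 held CANNTG, against 59.0% of all such windows. Both this count and the 6 above include overlapping Lmo4 windows that share the same CATTTG. By gene, 4 of the 9 held a CANNTG. Lmo4 has promoters at which the binding data differ between lists, and Tbr1 is the gene with no peak, so these windows are shown, 5′ to 3′ along the gene, with each CANNTG in capitals. The Lmo4 windows lie on the minus strand at chr3:144205206-144205505 (upstream start) and chr3:144202283-144202582 (downstream start), and that of Tbr1 on the plus strand at chr2:61804203-61804502.
Lmo4 upstream start: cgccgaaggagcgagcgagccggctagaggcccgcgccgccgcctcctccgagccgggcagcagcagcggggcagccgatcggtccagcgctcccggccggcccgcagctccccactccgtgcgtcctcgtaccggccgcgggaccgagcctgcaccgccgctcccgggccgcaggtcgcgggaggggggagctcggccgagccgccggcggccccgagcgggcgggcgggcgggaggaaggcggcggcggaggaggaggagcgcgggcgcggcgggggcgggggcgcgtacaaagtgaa
Lmo4 downstream start: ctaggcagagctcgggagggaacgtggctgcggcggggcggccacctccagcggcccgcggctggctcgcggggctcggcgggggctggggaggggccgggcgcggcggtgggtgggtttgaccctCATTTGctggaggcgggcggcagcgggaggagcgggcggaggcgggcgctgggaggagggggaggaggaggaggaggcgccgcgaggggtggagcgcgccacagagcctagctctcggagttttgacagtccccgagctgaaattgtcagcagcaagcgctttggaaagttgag
Tbr1: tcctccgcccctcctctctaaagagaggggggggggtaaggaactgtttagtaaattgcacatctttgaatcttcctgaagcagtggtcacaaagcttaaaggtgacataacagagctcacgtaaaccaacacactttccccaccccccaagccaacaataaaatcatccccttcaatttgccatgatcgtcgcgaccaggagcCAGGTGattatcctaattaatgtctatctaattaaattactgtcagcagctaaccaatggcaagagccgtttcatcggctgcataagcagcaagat
The upstream Lmo4 window had no CANNTG and a GC content of 81.3%. The downstream one had a single CATTTG, at positions -124 to -119 counted from the start, and a GC content of 72.7%; the window of the middle start, 64 bp above, overlaps it and holds the same CATTTG. The Tbr1 window held CAGGTG at positions -46 to -41. A match is a description of letters, not of a bound site.

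Sites were spread unevenly over the genes. Pou3f2 and Bcl11b had 11 each, Lmo4 and Mef2c 10 each, Bcl11a 8, Fezf2 4, Pou3f3 and Eomes 2 each, and Tbr1 none. Among the 21900 protein-coding genes that RefSeq lists, 323 had 11 or more sites and 422 had 10 or more. At least 1 peak was annotated to 52.1% of those genes. Of the 58 sites, 22 were wt consensus sites, meaning that they had a peak in at least 2 of the 3 wt lists. That is 37.9%, against 37.4% of all 32693 sites. These 22 belonged to 5 genes: 7 to Bcl11b, 6 to Lmo4, 5 to Pou3f2, 2 to Fezf2 and 2 to Mef2c. A wt consensus site at any distance was found at 27.7% of protein-coding genes. Without wt replicate 3, when a site must lie in wt replicates 1 and 2, 11 member sites qualified.

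**Figure D1:**
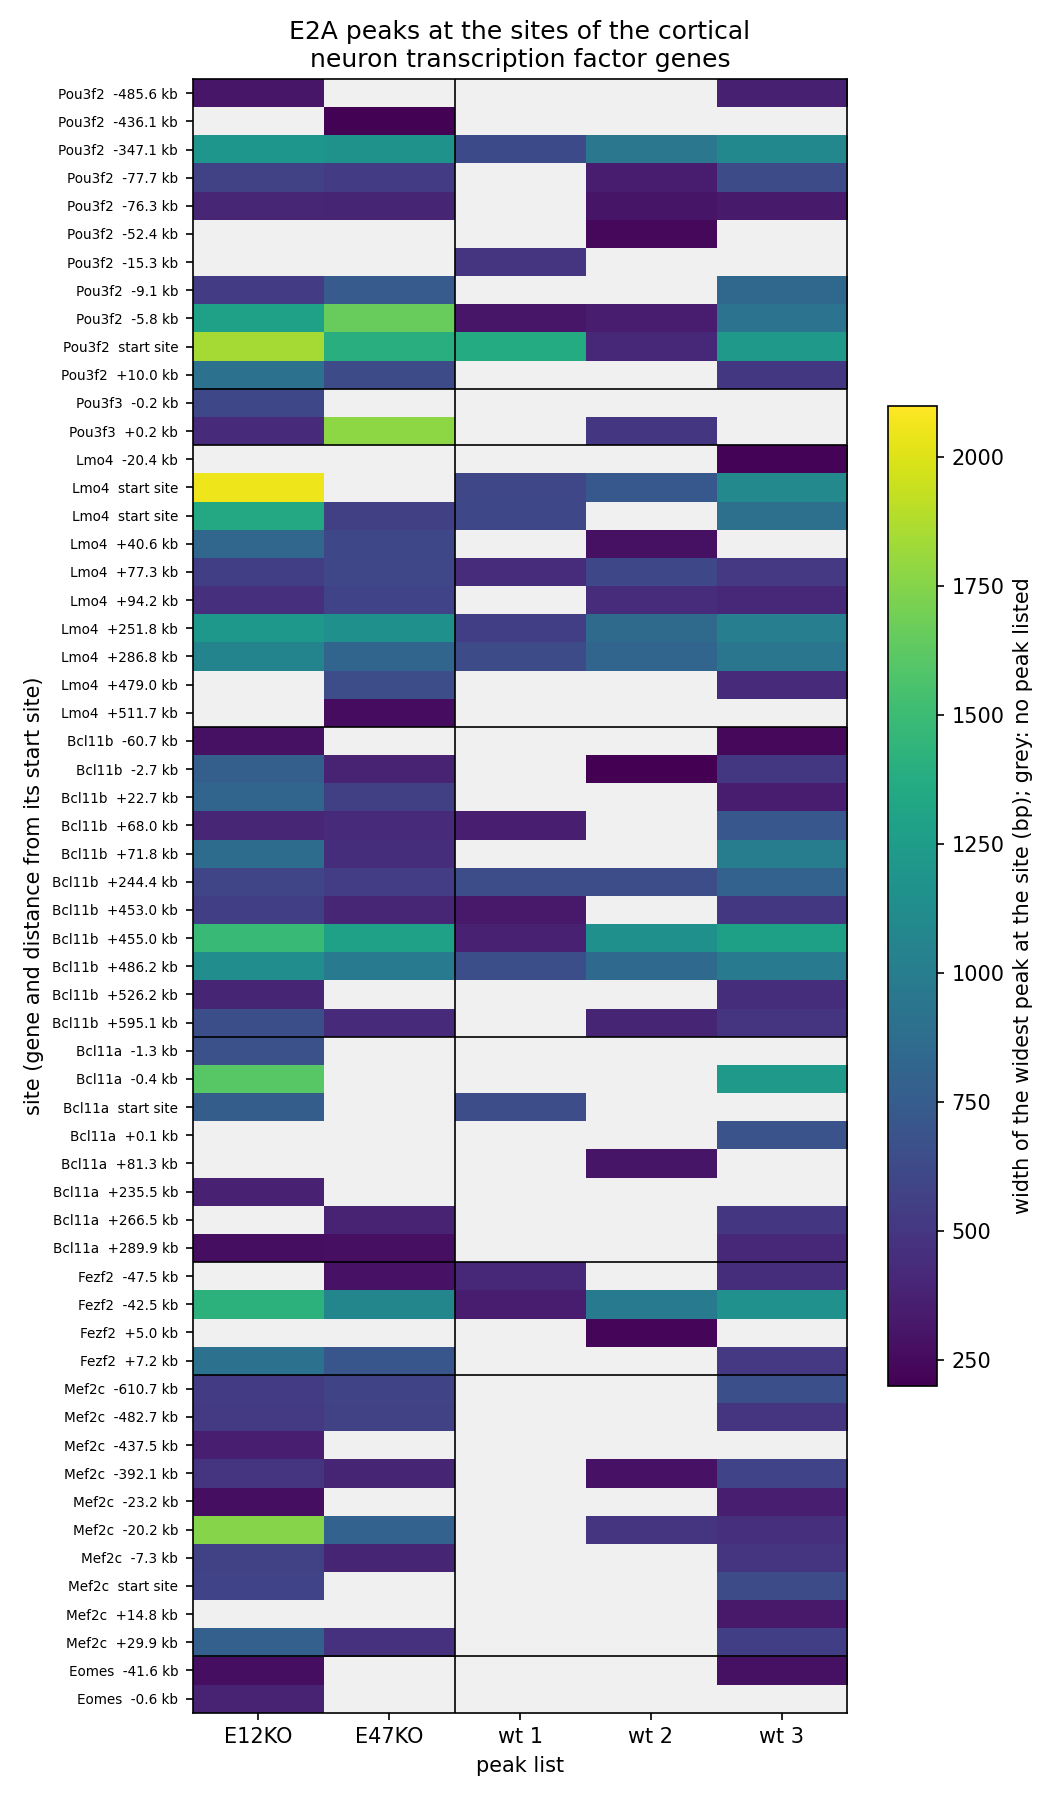
Width in bp of the widest E2A peak (colour) at each of the 58 sites (rows, by gene and distance from its start site) in the 5 lists (columns). Grey marks a list with no peak there. The 10 sites filled in all 5 lists belong to Pou3f2, Lmo4, Bcl11b and Fezf2, and Tbr1 has no row.

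Most sites, 40 of the 58, lay more than 10 kb from the start site. Of the 58, 34 were intergenic by the authors' annotation, 12 intronic, 10 at a promoter, 1 exonic and 1 just downstream of a gene. Some of the intergenic sites lay within 10 kb of a start site. By nearest distance, 26 lay upstream of the start site, 27 downstream of it and 5 over it. More than 100 kb separated 34.5% of them from the start site, against 18.0% of all sites, and 31.0% lay within 10 kb, against 41.1% of all sites. Within 10 kb, wt consensus sites were found at 3 of the 9 genes, Pou3f2, Lmo4 and Bcl11b, while 16.7% of protein-coding genes have one. Beyond 100 kb, the 4 sites of Lmo4 and the 6 of Bcl11b lay downstream, and the 3 of Pou3f2 upstream. A distant peak belongs to a member here only by the gene the authors' tables name for it. Some such peaks lie inside other transcripts, among them 2 Fezf2 sites in Cadps.

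**Figure D2:**
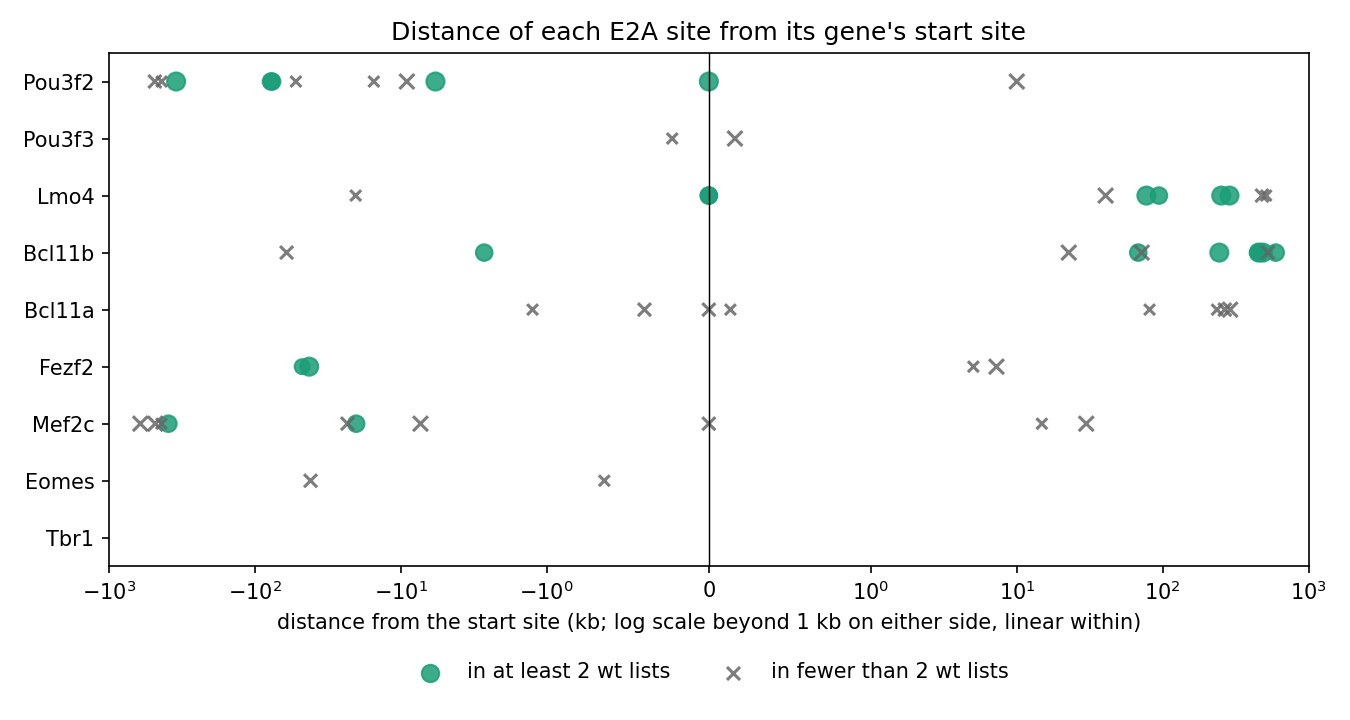
Distance of each of the 58 sites from its gene's start site in kb (log scale beyond 1 kb on either side), 1 row per gene. Circles are sites in at least 2 wt lists, crosses the rest, and larger marks are sites in more lists. The circles of Bcl11b run to 595.1 kb downstream, and Bcl11a, Pou3f3 and Eomes have crosses only.

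Pou3f2 encodes BRN2, a POU-domain factor of upper-layer neurons, and its promoter held the strongest member peak in wt replicate 1. The site spanned chr4:22414470-22416466 (mm9, as are all peak positions here). The peak at the start site was 1841 bp wide in E12KO, 1395 bp in E47KO, 1371 bp in wt replicate 1 and 1231 bp in wt replicate 3, whereas wt replicate 2 listed 2 narrower peaks, of 414 and 309 bp, the nearer of which stopped 55 bp short of the start. Only wt replicate 1 carries scores per peak, and there the authors' fold enrichment was 25.9 with a −log10 q of 83.8, rank 350 of 6814. All 5 lists thus had a promoter peak, and wt replicate 2 was the one in which it was split.

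Further sites formed a group upstream of Pou3f2. One at chr4:22421069-22422794, from 5.8 kb upstream, was a single peak of 1288 bp in E12KO and of 1662 bp in E47KO. In wt replicates 2 and 3 it was a pair of peaks, of 347 and 243 bp and of 921 and 318 bp, and wt replicate 1 listed 1 peak, of 312 bp and 6.65-fold. Another, at chr4:22424368-22425205 and 9.1 kb upstream, was in E12KO, E47KO and wt replicate 3, as was one at chr4:22404374-22405284, 10.0 kb downstream. A pair of sites 76.3 and 77.7 kb upstream, chr4:22491546-22492024 and chr4:22492995-22493639, lay in both knockouts and in wt replicates 2 and 3 but not in wt replicate 1. The most distant site in all 5 lists, 347.1 kb upstream at chr4:22762371-22763653, had widths of 1198 bp in E12KO and 1174 bp in E47KO, and of 624, 953 and 1086 bp in wt replicates 1 to 3, with 8.83-fold enrichment in wt replicate 1. A peak 15.3 kb upstream, chr4:22430107-22430592, was in wt replicate 1 alone although its fold enrichment there was 10.5, above the 7.48 median of that list. The RefSeq start of Pou3f2 could not be matched to the deposited one, since the annotated lengths differ, and its RefSeq window held no CANNTG. RefSeq starts of Eomes, Fezf2, Pou3f3 and Mef2c could not be matched by length either. Those of Bcl11a, Bcl11b and Lmo4 were matched, and that of Tbr1 was not compared.

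**Figure D3:**
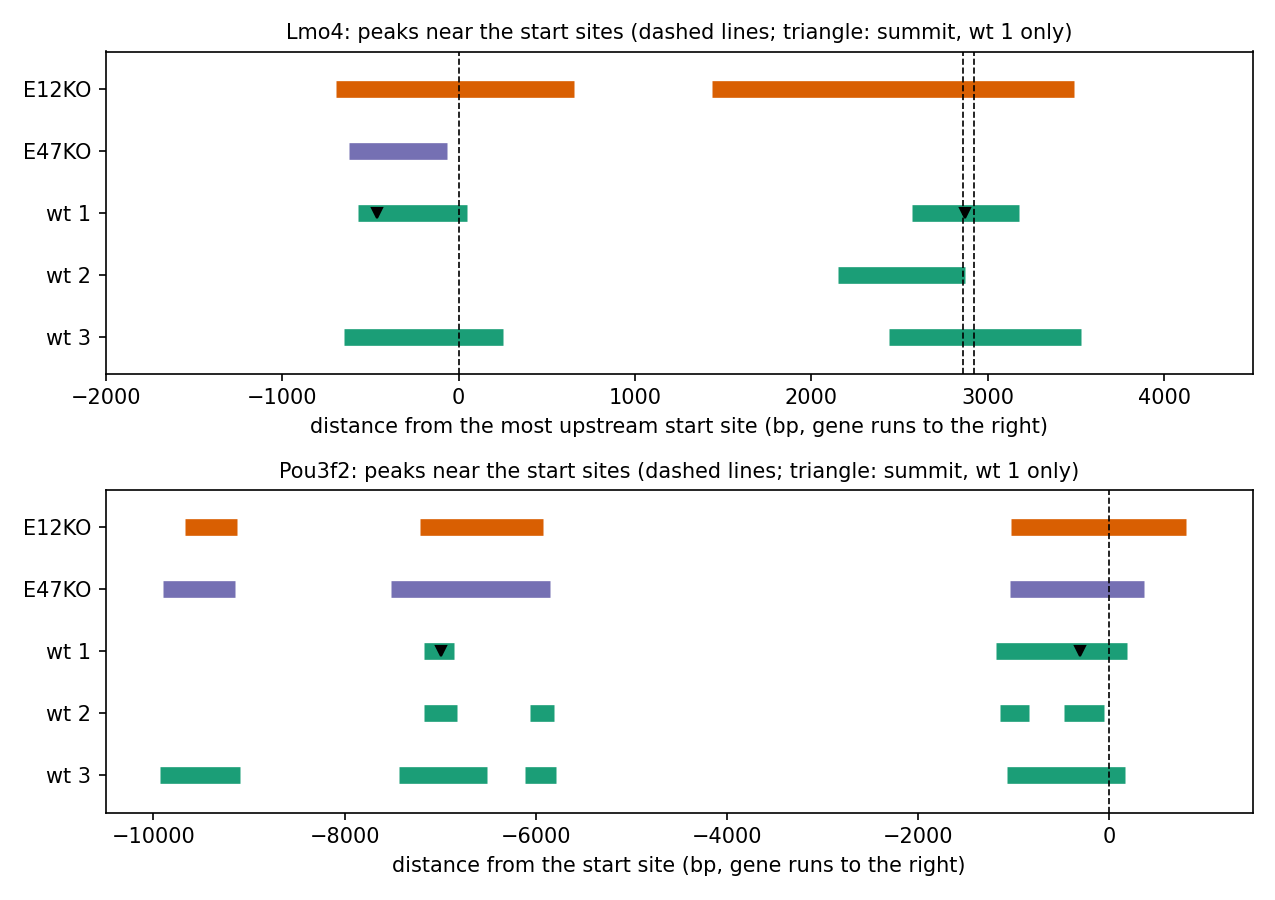
Peaks (bars) by list at the Lmo4 start sites and at and upstream of the Pou3f2 start site. The x axes give distance in bp from the most upstream start site, dashed lines mark start sites, and triangles the summits given for wt replicate 1. At Lmo4 the E47KO row has a bar 64 bp upstream of the first start and none at the downstream ones. At Pou3f2 every row has a bar over the start site or, in wt 2, 55 bp from it.

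Pou3f3, which encodes the closely related BRN1 and shares work with BRN2 in cortical neurons, had only 2 sites by gene name, neither a wt consensus site. One at chr1:42754152-42755939, which begins 161 bp downstream of the start, was 435 bp wide in E12KO, 1778 bp in E47KO and 500 bp in wt replicate 2, and was absent from wt replicates 1 and 3. The other, chr1:42753154-42753765, just upstream of the start, was in E12KO alone. The gene is flanked by noncoding transcripts, however, and the tables assign the peaks around it to those. Within 50 kb of the Pou3f3 start, 10 more sites were annotated to Pantr1 or 2900092D14Rik, of which 5 were wt consensus sites. The broadest of them, chr1:42749969-42752840, ended 1151 bp upstream of the Pou3f3 start and was in all 5 lists. Its widest peak was 2663 bp in E12KO, 2153 bp in E47KO, 2834 bp in wt replicate 3, 521 bp in wt replicate 2 and, as 1 of 3 peaks of up to 7.40-fold, 665 bp in wt replicate 1. On the other side, a site beginning 6.0 kb downstream, chr1:42759983-42762847, was in both knockouts and in wt replicates 2 and 3. Counting by the assigned gene's name therefore leaves out most E2A sites beside Pou3f3. At the other members with a peak this concerned 1 site, 27.8 kb from the Eomes start (chr9:118415106-118416216). It was annotated to Golga4 and listed in both knockouts and in wt replicates 2 and 3. The surroundings of Tbr1, which has no peak under its own name, were not searched in this way.

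**Figure D4:**
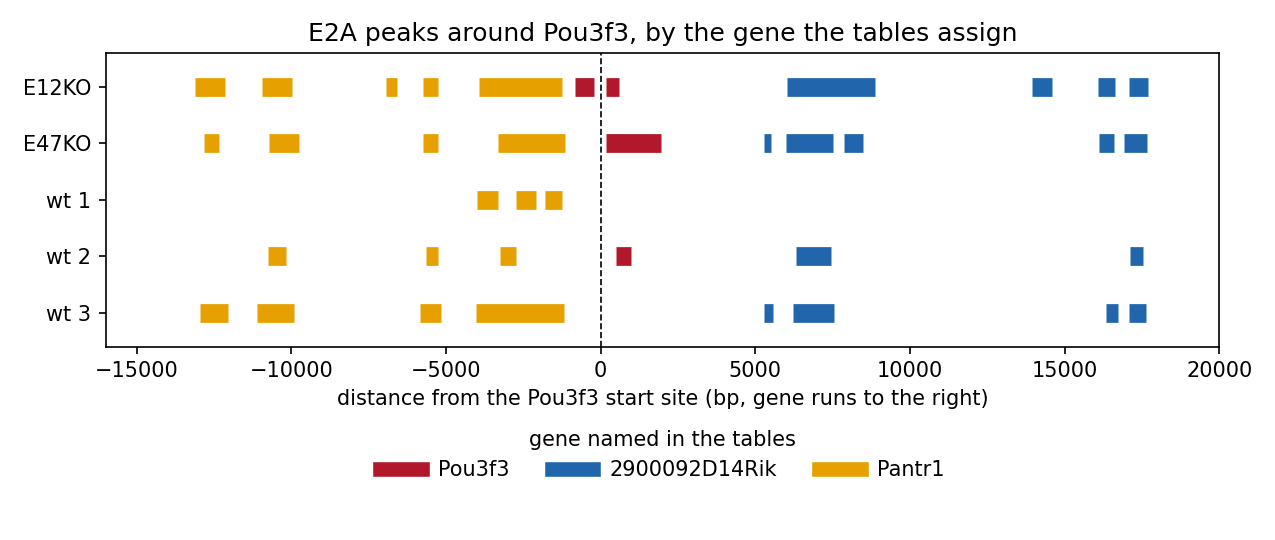
E2A peaks (bars) within about 20 kb of the Pou3f3 start site in the 5 lists, coloured by the gene the tables name. The x axis gives distance in bp from the start site, and the gene runs to the right. Peaks named Pou3f3 lie in E12KO, E47KO and wt 2 only, while peaks named Pantr1 lie within 5 kb upstream in all 5 lists.

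Lmo4 encodes a LIM-only adaptor protein that joins other factors into complexes and is known from upper cortical layers. It has 3 start sites in the deposited annotation, the lower 2 being 64 bp apart and 2859 bp below the first, the same spacing as in RefSeq. At the downstream pair, the site chr3:143864689-143866784 was the single member wt consensus site with no E47KO peak. E12KO had a peak of 2055 bp there, the widest at any member, and wt replicates 1 to 3 had peaks of 605, 723 and 1093 bp. In wt replicate 1 it was enriched 13.2-fold with a −log10 q of 30.5, and its summit lay 52 bp upstream of the lowest start. The peak in E12KO and those in wt replicates 1 and 3 covered all 300 bases of the downstream window shown above, and that in wt replicate 2 covered 199 of them. The nearest E47KO peak was 1499 bp away.

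That nearest E47KO peak ended 64 bp short of the upstream start of Lmo4, where the pattern over the lists was another. The site chr3:143867562-143868911 had a peak of 1350 bp in E12KO and of 559 bp in E47KO, of 614 bp in wt replicate 1 and of 902 bp in wt replicate 3, and none in wt replicate 2. Its fold enrichment in wt replicate 1 was 5.53. So E47KO lacked one Lmo4 promoter site that all 3 wt lists had, and wt replicate 2 lacked the other, which E47KO had.

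Downstream of Lmo4, 3 intergenic or intronic sites were in all 5 lists. That at chr3:143787226-143787996, 77.3 kb below the start in an intron of another transcript, was 550 bp wide in E12KO and 607 bp in E47KO, and 443, 612 and 512 bp in wt replicates 1 to 3, with 13.2-fold enrichment in wt replicate 1. The other two, at chr3:143612199-143613481 (251.8 kb) and chr3:143577405-143578540 (286.8 kb), reached 9.98-fold and 11.9-fold there. A site 94.2 kb downstream was in both knockouts and in wt replicates 2 and 3, and one 40.6 kb downstream in both knockouts and in wt replicate 2 only.

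Bcl11b encodes CTIP2, a zinc finger protein of corticospinal neurons that also acts in T cells. It had the most wt consensus sites of the 9 genes, and each of its 11 sites was listed in E12KO and in wt replicate 3, while 9 were in E47KO. Near the gene there was 1 site, chr12:109244308-109245083, 2.7 kb upstream of the start. It measured 776 bp in E12KO and 383 bp in E47KO, 198 and 505 bp in wt replicates 2 and 3, and was absent from wt replicate 1. Intron 3 of 3 held 2 sites, at chr12:109172930-109173644 and chr12:109168818-109169850, and intron 2 another, 22.7 kb below the start. All 3 were in both knockouts and in wt replicate 3, and the first also in wt replicate 1.

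The strongest Bcl11b sites lay in the intergenic stretch downstream of the gene. At chr12:108754273-108755406, 486.2 kb away, the peak was 1134 bp wide in E12KO and 974 bp in E47KO, and 657, 846 and 983 bp in wt replicates 1 to 3, with 15.4-fold enrichment in wt replicate 1. The site at chr12:108784996-108786631, 455.0 kb away, was 1481 bp in E12KO and 1284 bp in E47KO, 1153 and 1277 bp in wt replicates 2 and 3, and 2 peaks of 378 and 317 bp in wt replicate 1. That at chr12:108996419-108997263, 244.4 kb away, was likewise in all 5 lists, at 10.1-fold. A peak at chr12:108788050-108788666 was missing from wt replicate 2 alone, and one at chr12:108645865-108646523, 595.1 kb away, from wt replicate 1 alone. The sites 526.2 kb downstream and 60.7 kb upstream were each in E12KO and wt replicate 3 and in no other list.

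Bcl11a encodes CTIP1, the close relative of CTIP2, yet no site of it was a wt consensus site. Its promoter region was covered piecemeal. E12KO had peaks of 671, 764 and 1607 bp between chr11:23976135 and chr11:23980298, E47KO had none, wt replicate 1 had one of 649 bp over the first start (chr11:23977646-23978294, 4.86-fold), wt replicate 2 had none, and wt replicate 3 had peaks of 1219 and 689 bp (chr11:23978762-23979980 and chr11:23980828-23981516). The wt replicate 1 and wt replicate 3 peaks did not overlap, and joining peaks up to 500 bp apart makes a consensus site of them. Of the 4 other sites, 81.3 to 289.9 kb below the nearest start, the farthest was in both knockouts and in wt replicate 3.

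Fezf2, the zinc finger gene that specifies corticospinal neurons, had 4 sites. The one in all 5 lists, chr14:13220867-13222378, lay 42.5 kb upstream in intron 29 of 30 of the neighbouring gene Cadps. Its peak was 1423 bp wide in E12KO and 1075 bp in E47KO, and 353, 981 and 1164 bp in wt replicates 1 to 3, with 8.54-fold enrichment in wt replicate 1. In the same intron, chr14:13225870-13226393 was the single member wt consensus site with no peak in E12KO. It was 294 bp wide in E47KO, and 419 and 451 bp in wt replicates 1 and 3, and wt replicate 2 lacked it as E12KO did. The nearest E12KO peak was 3492 bp away. Nearer the gene, chr14:13170199-13171109 (7.2 kb downstream) was in both knockouts and in wt replicate 3, and chr14:13173089-13173322 in wt replicate 2 alone.

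Mef2c, a MADS-box factor of neuronal survival and synapse development, had no peak in wt replicate 1. Its 2 wt consensus sites were in both knockouts and in wt replicates 2 and 3. That in intron 4 of 10, chr13:83742765-83744521, was 1 peak of 1757 bp in E12KO and 2 peaks in each of the other 3 lists, of 800 and 475 bp in E47KO, 495 and 390 bp in wt replicate 2 and 457 and 412 bp in wt replicate 3. The other, chr13:83250326-83250907, lay 392.1 kb upstream, at 490 bp in E12KO, 393 bp in E47KO, 291 bp in wt replicate 2 and 582 bp in wt replicate 3. A peak over one of the annotated start sites, chr13:83663319-83663953, was in E12KO and wt replicate 3 only. The site in intron 2 of 10, 7.3 kb upstream of the nearest start (chr13:83704803-83705441), and one in exon 9 of 11 (chr13:83794655-83795463) were in both knockouts and in wt replicate 3.

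The T-box genes Eomes and Tbr1, which mark intermediate progenitors and early deep-layer neurons, had few or no peaks. Eomes had a promoter peak of 381 bp in E12KO alone (chr9:118386282-118386662, 645 bp upstream) and a site 41.6 kb upstream (chr9:118345334-118345710) of 274 bp in E12KO and 286 bp in wt replicate 3. Neither was in E47KO, wt replicate 1 or wt replicate 2. Tbr1 had no peak assigned to it in any list. Of its neighbours in the gene table, Slc4a10 had no peak either, and Psmd14 had 1 peak in E12KO, none in E47KO, and 1, 1 and 2 in wt replicates 1 to 3. These Psmd14 peaks lay between chr2:61494336 and chr2:61499028, more than 50 kb upstream of the Psmd14 start. That is the side of Psmd14 facing away from Tbr1, so they are not peaks beside Tbr1.

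The knockouts ask whether E2A peaks are still listed when 1 of the splice forms is missing, and at nearly all member wt consensus sites they were. Of the 22 wt consensus sites, 21 had a peak in E12KO, or 95.5% (exact Clopper-Pearson 95% interval 77.2 to 99.9, counting error only), against 96.6% of all 12231 wt consensus sites. The same number, 21 of 22, had one in E47KO, against 93.6% of all. Both knockouts had a peak at 20 of the 22, or 90.9%, against 92.0% of all. The members' shares thus lay close to those of all sites, and nothing about the members follows from them. The exceptions were the downstream Lmo4 promoter in E47KO and the Fezf2 site 47.5 kb upstream in E12KO, and no site was missing from both. The count of 20 was 13 without wt replicate 2 and 10 without wt replicate 3, where consensus means presence in the other pair of wt lists.

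Each wt list was also looked up at the sites shared by the other two, beside the knockouts and beside all sites of the same kind. Of 18 member sites in both wt replicates 2 and 3, 18 were in E12KO (98.2% of all such sites), 17 in E47KO (94.4%, against 96.0%) and 11 in wt replicate 1, the shortest list (61.1%, against 38.7%). Of 15 in both wt replicates 1 and 3, 14 were in E12KO (93.3%, against 95.9%), 14 in E47KO (93.3%, against 92.7%) and 11 in wt replicate 2 (73.3%, against 77.1%). Of 11 in both wt replicates 1 and 2, all were in E12KO (99.3% of all such sites), 10 in E47KO (90.9%, against 98.0%) and all in wt replicate 3 (98.9% of all such sites). The member absent from E47KO there was the downstream Lmo4 promoter. Apart from the larger share in wt replicate 1, the members' counts were within 1 site of what the shares over all sites would give, and nothing about the members is read from them. List length and absence moved together here, and their relation was not tested.

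No member site was in both knockouts and in no wt list (0 of 58, exact Clopper-Pearson 95% interval 0 to 6.16%), against 4.41% of all sites. That count was 2 without wt replicate 2 and 10 without wt replicate 3, the longest wt list. A peak in 1 list only was found at 14 member sites, or 24.1%, against 28.4% of all sites: 5 in E12KO, 2 in E47KO, and 1, 3 and 3 in wt replicates 1 to 3. All 5 lists had a peak at 10 member sites, or 17.2%, against 12.7% of all sites. These were 3 each of Pou3f2, Lmo4 and Bcl11b and 1 of Fezf2.

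In strength the member peaks lay inside the range of wt replicate 1, in which fold enrichments ran from 1.69 to 106.2. Its 18 member peaks had fold enrichments from 4.02 to 25.9 with a median of 8.68, against a median of 7.48 over all 6814 peaks, and 11 of the 18 were above that. By −log10 q the Pou3f2 promoter was in the top 5.14% of the list, and the next member peak, 486.2 kb from Bcl11b, in the top 15.6%. At the 10 sites in all 5 lists, the widest peak had a median width of 1206.5 bp in E12KO, 1114.5 bp in E47KO, and 586.5, 834.5 and 999 bp in wt replicates 1 to 3. Over all 4153 sites in 5 lists the medians were 937 bp, 821 bp, and 473, 560 and 847 bp, lower in every list. Over all their sites, though, members were not wider in every list: the median peak was 603.5 bp against 616 bp for all peaks in E12KO, 564.5 against 550 bp in E47KO, and 517.5 against 432.5, 407 against 420 and 509 against 549 bp in wt replicates 1 to 3. At 18 wt consensus sites with 1 peak per list, the wt centres farthest apart were a median of 79.25 bp from each other. The median distance from the mean wt centre was 73.5 bp in E12KO and 38.8 bp in E47KO (17 sites each), a measure that cannot be set against that range.

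**Figure D5:**
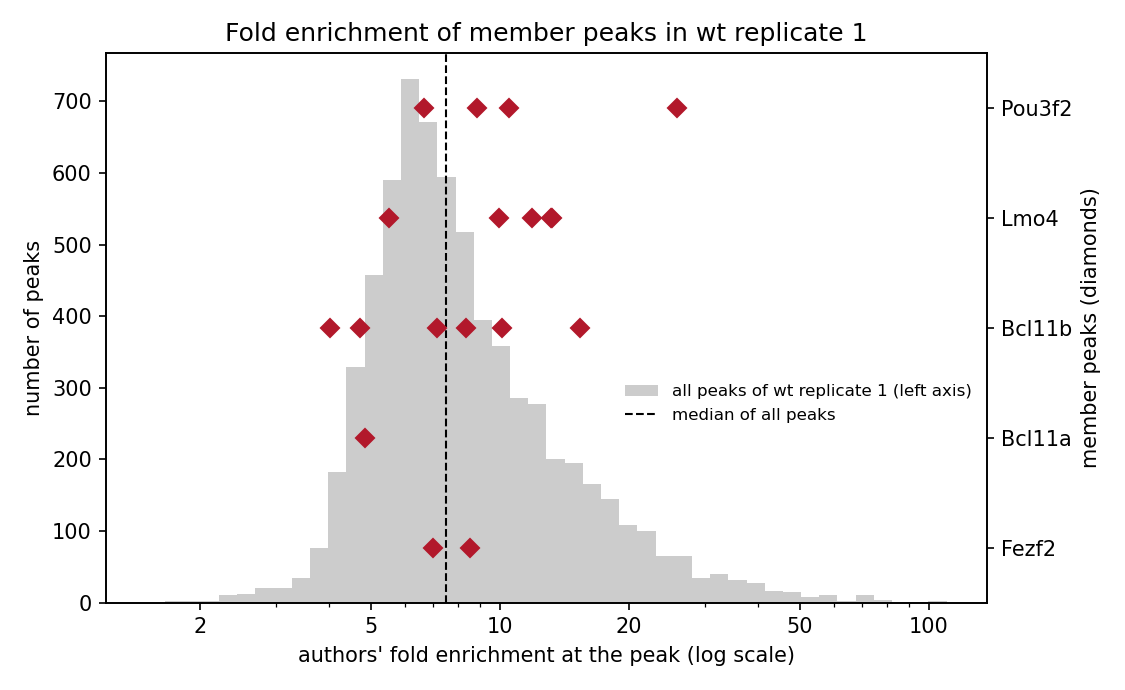
Distribution of the authors' fold enrichment (log scale) over the 6814 peaks of wt replicate 1 (grey, number of peaks on the left axis), with the 18 member peaks as diamonds by gene. The dashed line is the median of all peaks, 7.48. The Pou3f2 promoter at 25.9 lies farthest right.

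Other cortical factors were looked up for context, as a list of 32 genes of progenitor and neuron identity. A wt consensus site within 10 kb was found at 16 of them, against 16.7% of protein-coding genes, and 5 had no peak at all: Emx1, Neurog1, Neurod1, Trp73 and Bhlhe22. The 16 were Lhx2, Insm1, Cux1, Sox5, Sox11, Zfpm2, Foxp1, Foxp2, Tle4, Nfia, Nfib, Lhx5, Etv1, Zbtb20, Id2 and Nr2f1. Of their 25 such sites, 25 had a peak in E12KO, against 96.6% of all wt consensus sites, and 24 in E47KO, against 93.6%. The site without an E47KO peak was that of Lhx5, a LIM-homeobox gene. These counts lay close to the shares over all sites, and nothing about these genes is read from them. Where wt replicate 1 had a peak within 10 kb of these 16 genes, its fold enrichment ranged from 4.58 at Zfpm2, a cofactor of GATA factors, to 35.8 at Id2, which encodes an inhibitor of E proteins. Between them were 21.7 at the corepressor gene Tle4 and 17.1 at the nuclear factor I gene Nfia. The proneural gene Neurog2, whose protein can pair with E2A, had 2 sites, neither of them a wt consensus site. Counted at any distance, the median number of sites per gene was 5.5 in this list, 8 among the 9 members and 1 over all protein-coding genes. These medians are not adjusted for distance, and 34.5% of member sites lay beyond 100 kb, against 18.0% of all sites.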

How the data were processed

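E2A ChIP-seq peak lists of 5 libraries were analysed, 1 list per library with no pooling. The tools named in the submitters' processing notes are MACS2 2.1.0, Picard 1.119 and BWA 0.7.13, and the build is mm9. Their parameters are not known here. Per the file headers, each deposited table gives peak positions, widths, annotation, an assigned gene and a signed distance in bp. For wt replicate 1 the authors also deposited the pileup signal, a fold enrichment (ratio), and −log10 p and −log10 q per peak. Peak positions are as in the tables, and distances and intron numbers are from the other 4 lists, since wt replicate 1 measures from another peak edge on minus-strand genes and counts introns in the other direction. A lone wt replicate 1 peak keeps its own distance. The deposited lists carry different false discovery rate labels for wt replicate 1 and the rest.

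Peaks overlapping by at least 1 bp were joined into sites with Python 3.11.15 and pandas 2.3.3, a step tested on simulated peaks. Intervals came from scipy 1.17.1. Members matched by symbol and gene ID, all 9 in the RefSeq tables (GRCm38.p6, used for names and sequences only). No test across genes was run. The named positions are every site within 10 kb of a start, the strongest in wt replicate 1, those in all 5 lists, and those missing from a knockout. Others, including the sites beside Pou3f3 and Eomes under another gene's name and the Tbr1 neighbours, were chosen after their values were seen. Members, lists and rules were chosen with earlier results of these data known.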

Additional observations from a re-analysis of the deposited data

How the results depend on the processing

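Joining peaks only where at least 50% of the shorter one overlapped, dropping wt replicate 1 peaks with −log10 q under 5, and requiring the member's symbol at every peak left all 7 summary counts and shares as they were. Of 69 alternative values, 52 stayed within 1.5 times the reported count or inside the reported share's exact binomial interval, which still allows 22 consensus sites to become 15. With peaks limited to 100 kb from the start site, sites fell to 38, wt consensus sites to 13 and those in both knockouts to 11. With a consensus defined as all 3 wt lists, there were 11 consensus sites, with 100% in E12KO and 10 in both knockouts. Members with a wt consensus site near the start rose to 5 when peaks within 500 bp were joined, by Bcl11a and Pou3f3, and to 5 with a limit of 50 kb, by Fezf2 and Mef2c. The joined Pou3f3 region, chr1:42749969-42755939, takes in the neighbouring site that is annotated to Pantr1. Leaving out each wt replicate gave 55 to 57 sites, 11 to 18 consensus sites, 93.3% to 100% of them in E12KO, 90.9% to 94.4% in E47KO, 10 to 17 in both knockouts, 0 to 10 sites in both knockouts but in none of the wt lists, and 2 to 3 members with a near consensus site. Fewer lists lower consensus counts by construction. Joining wt peaks alone, chosen after seeing the data, gave 24 consensus regions. No paired analysis was possible because each knockout has 1 library with no replicate number in its labels and no test was made. Without read totals, no limit of detection can be given.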
